A study of Equus caballus with 4 samples.

Results

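Eukaryotic translation initiation factors bring a ribosome to an mRNA, and their genes are described here in differentiating equine satellite cells (ESC), the stem cells of skeletal muscle, with and without HMB (β-hydroxy-β-methylbutyrate), which cells make from leucine. The genes were chosen by name, as every probe whose gene name in the array files begins with EIF and a digit from 1 to 6, without the kinases (EIF2AK) and the binding proteins of eIF4E (EIF4EBP), which are listed apart as regulators. This gave 64 of 43603 probes, for 37 of the 24998 gene or transcript names on the array.

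The cells were primary cultures from the semitendinosus muscle of healthy colts aged 6 months. HMB was added after 2 days of differentiation and the cells were harvested 24 h later, on day 3, while control cells stayed in the same differentiation medium without it. The methods give the concentration as 50 µmol/l, whereas the sample labels give 50 µg. RNA of HMB-treated cells, in Cy5, was hybridised with RNA of control cells, in Cy3, on each of 4 two-colour arrays on 1 slide. The methods name 6 colts, and which colts the 4 arrays carry, or whether both channels of an array come from the same colt, is not stated. The description field of every sample speaks of GO-treated cells and ends in rep1, so the titles and source names, which say HMB and number the arrays 1 to 4, were used. No array had the dyes swapped, so a probe that favours Cy5 or Cy3 carries that bias in its ratio, and the p-values measure only the spread between arrays. Between 63.48% and 66.9% of the probe spots in a channel were well above background, and the number of arrays limits the precision.

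Initiation begins when eIF2 carries the initiator tRNA to the small ribosomal subunit, while eIF2B recharges eIF2 with GTP and eIF3 holds the subunit ready. The cap-binding complex eIF4F, made of eIF4E, eIF4G and the helicase eIF4A, then recruits the mRNA, and eIF1, eIF1A and eIF5 govern the choice of the start codon. In skeletal muscle this is a step at which leucine and growth signals act, in part through phosphorylation of the eIF4E-binding proteins, which mRNA arrays do not measure.

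The cells were checked with 10 markers of the muscle lineage, from the regulators MYF5 and MYOD1 of satellite cells and myoblasts to genes switched on as these differentiate, such as MYOG, MYH3, CKM, ACTC1 and CHRNA1. Of these 8 were tested, and all 8 were lower with HMB and past the threshold (an adjusted p of at most 0.05 in limma), beside 22.4% of all tested genes, with a median log2 ratio of −0.78. Here a log2 ratio is that of HMB-treated over control cells, so that a negative value is a lower mRNA level with HMB. On the 4 arrays the median of these markers was −0.32, −0.74, −0.94 and −1.05. MYF5 was at −1.01 and MYOD1 at −0.46, and among the others were the embryonic myosin MYH3 (−1.11) and desmin (DES, −0.98). Without lowess 7 of the 8 passed, 6 of them lower, with a median of −0.55, or 8 with 7 lower and a median of −0.60 centred on the tested probes. The share of all tested genes was 27.2% and 24.9% in these 2 fits. MYH3 was then at −0.37 (adjusted p = 0.0522, past the threshold no longer) and −0.42, and DES at −0.62 and −0.68. The cardiac actin ACTC1 turned with the scaling, from −0.38 to 0.01 with normexp and loess, another background correction and dye fit together. Without lowess it was at 0.69 and 0.64. The count was 4 of 8 without array 2, 4 without array 3 and 5 without array 4, beside 8.97%, 9.76% and 17.6% of all tested genes. All 8 had an unadjusted p under 0.05 in limma in each of those fits. PAX7 and TNNT1 had no probe under their names.

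The methods describe a preplating step meant to lower the share of fibroblasts. Of 6 fibroblast markers tested, PDGFRA (1.53) and FAP (0.42) were past the threshold, both higher, beside 22.4% of all tested genes, while COL3A1 (−0.21) and THY1 (−0.10) were below 0 without passing, and the median of the list was 0.08. Without lowess 5 of the 6 passed, all 5 higher, with a median of 0.66, or 4 with a median of 0.61 when the arrays were centred on the tested probes, beside 27.2% and 24.9% of all tested genes. The added calls there were COL3A1, which turned to 0.75 and 0.70, DCN at 0.92 and 0.87, and LUM at 0.30 by the array median alone. With normexp and loess 3 passed, all higher, beside 21.4% of all tested genes, with a median of 0.22. PDGFRA was then at 0.89 and DCN, past the threshold there, at 0.36 (adjusted p = 0.0325). Without array 1, 2 or 3 the count was 1, beside 17.1%, 8.97% and 9.76% of all tested genes. COL1A1 had no probe by name. None of the 2 tested leukocyte markers passed in limma, beside 22.4% of all tested genes, with 1 at an unadjusted p under 0.05 (CD68, −0.29). Under either scaling without lowess none passed, beside 27.2% and 24.9%. The 4 endothelial markers and the 3 adipocyte markers on the array were not well above background in a channel on all 4 arrays. In such bulk RNA, fewer cells of a type and less RNA per cell cannot be told apart, and the part of the markers' shift in the values that follow was not tested.

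Few of the initiation factor genes passed the test. Of the 36 tested, 3 (8.33%) were past the threshold, beside 22.4% of all 15614 tested genes. The helicase gene EIF4A2 and the scaffold gene EIF4G3 fell, and EIF5A2 rose. At an unadjusted p under 0.05 there were 8 members, beside 5921 of the 15614 tested genes. A change of at least 1.3-fold was seen in 1 member (2.78%) and in 15.7% of all tested genes, and 12 members (33.3%) had the same sign on all 4 arrays, beside 45.8%. The gene not tested was EIF4E1B, a relative of the cap-binding protein found mainly in germ cells, whose probe was above background in neither channel on any array.

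The count moved when lowess was left out. With normexp and loess, which also fit the dyes, 4 of 36 passed, 1 higher and 3 lower, beside 21.4% of all tested genes. These were the 3 genes above and EIF3A. Without lowess, with each array centred on its median, 13 of 36 members passed, 10 of them higher and 3 lower, beside 27.2% of all tested genes. Centred on the tested probes, an alternative chosen after seeing the data, 11 passed, 7 of them higher, beside 24.9% of all tested genes. The 3 genes above were among the 13, and 2 of them among the 11, from which EIF5A2 was missing. The count was 1 without array 2, without array 3 or without array 4, where the share of all tested genes was 8.97%, 9.76% and 17.6%. With a plain t-test on the same ratios no member passed by its brightest probe, beside 2.63% of all tested genes. Other probes of a member were not counted. In that test 9 members had an unadjusted p under 0.05, against 8 in limma, where 3 passed.

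**Figure D1:**
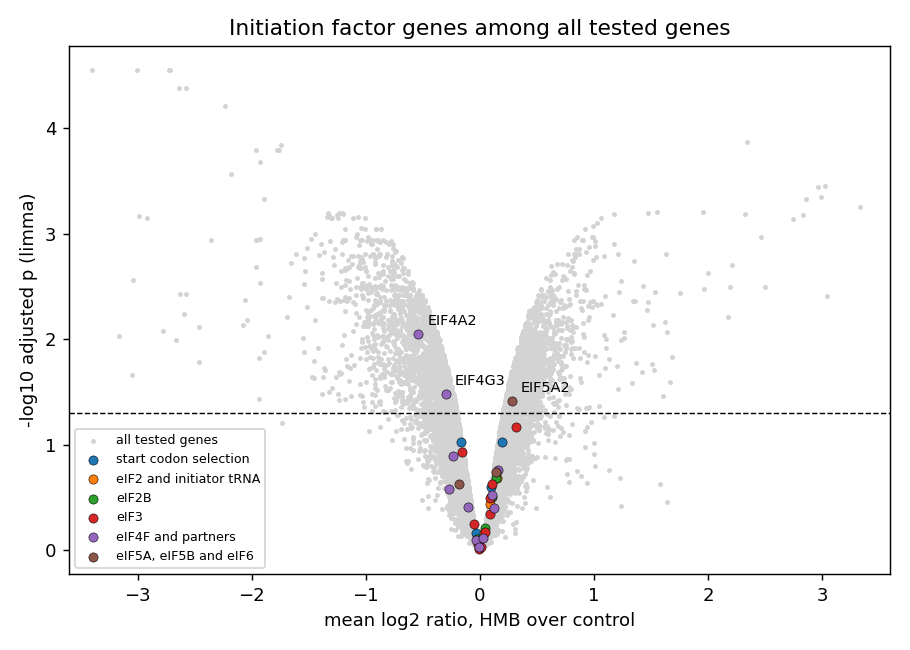
Mean log2 ratio of HMB-treated over control cells (horizontal) against minus the log10 of the adjusted p from limma (vertical) for all 15614 tested genes in grey and the 36 tested initiation factor genes coloured by complex, n 4 arrays. The dashed line marks an adjusted p of 0.05, and EIF4A2, EIF4G3 and EIF5A2 lie above it, the last below it with arrays centred on the tested probes without lowess.

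The median log2 ratio of the members was 0.04, beside 0.02 for all tested genes. On the 4 arrays it was 0.08, 0.03, 0.03 and −0.03. Array 4 was therefore the only array with a median below 0, and the median of the means was 0.02 without array 1 and 0.01 with normexp and loess. The means ran from −0.54 for EIF4A2 to 0.32 for EIF3D, with 21 members above 0 and 15 below. Without lowess the median of the members was 0.19, or 0.13 centred on the tested probes, while that of all tested genes was 0.04 and −0.01. Of the 36 members, 9 turned from below to above 0 without lowess, namely EIF1, EIF2B2, EIF3A, EIF3E, EIF3H, EIF3K, EIF4A1, EIF4E and EIF5. Centred on the tested probes 7 of them did, all but EIF2B2 and EIF4E, and after normexp and loess only EIF3G had another sign.

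**Figure D2:**
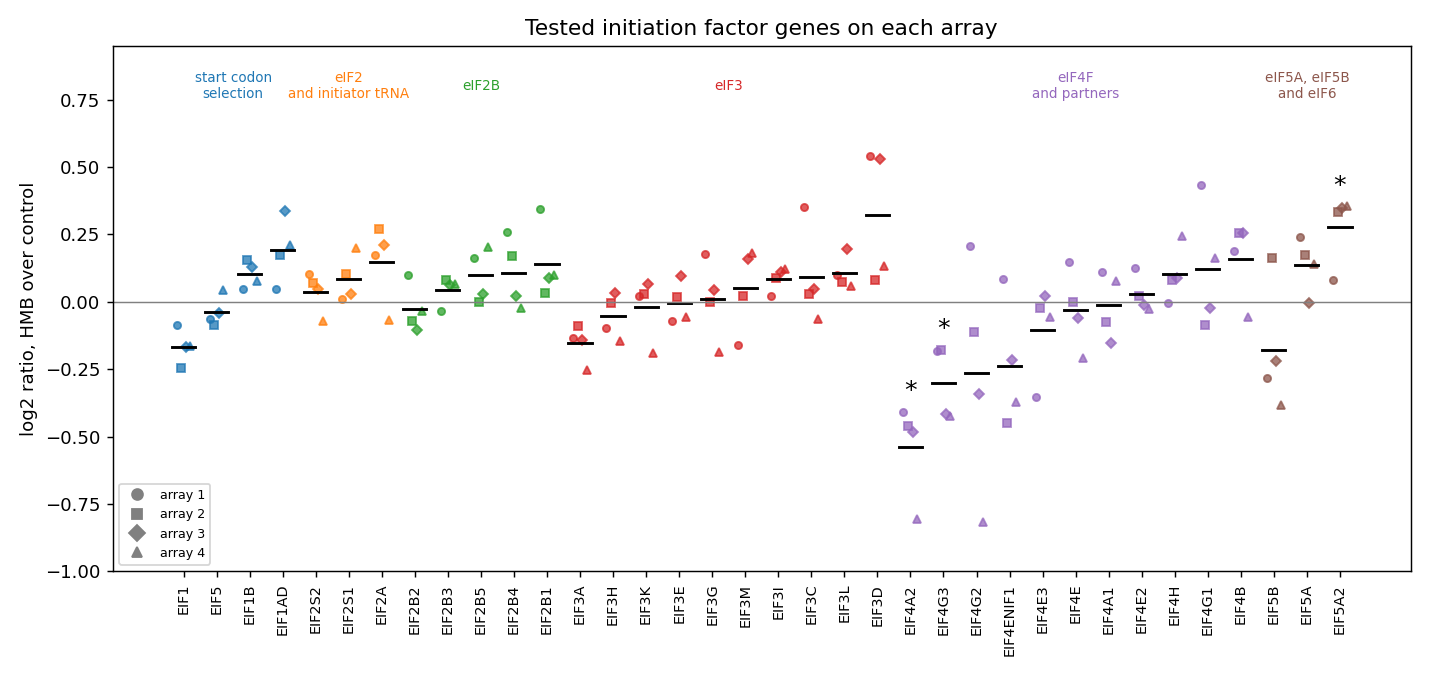
Log2 ratio of HMB-treated over control cells (vertical) of each of the 36 tested initiation factor genes on each of the 4 arrays (symbols), with the mean as a bar, ordered by complex and by mean, and an asterisk for an adjusted p of at most 0.05. EIF4A2 was below 0 on all 4 arrays, at −0.80 on array 4, and it was lower under every scaling tried.

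eIF2 binds the initiator tRNA and is the target of the stress kinases. Of its genes, EIF2S1, for the subunit they phosphorylate, and EIF2S2 were tested along with EIF2A, which can deliver tRNA by another route. No gene of the 3 passed in limma, beside 22.4% of all tested genes. None had an unadjusted p under 0.05, beside 5921 of all 15614 tested genes. Their median was 0.09, and 0.26 without lowess or 0.20 centred on the tested probes. EIF2A was highest, at 0.17, 0.27, 0.21 and −0.07, and its mean was 0.15 (SD 0.15, n 4, adjusted p = 0.206). It was above 0 on all arrays but array 4. EIF2S2 was lowest at 0.10, 0.07, 0.05 and −0.07, with a mean of 0.04 (SD 0.08, n 4, adjusted p = 0.692). The same array was the one below 0, and the mean was 0.07 without it and 0.02 without array 1. Without lowess both lay past the threshold and higher, EIF2A at 0.26 (adjusted p = 0.0390) and EIF2S2 at 0.36 (adjusted p = 0.0131), and centred on the tested probes EIF2S2 did so at 0.31 (adjusted p = 0.0219).

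eIF2B is the exchange factor that reactivates eIF2, and all 5 of its subunit genes were tested. None passed in limma, beside 22.4% of all tested genes, and none had an unadjusted p under 0.05, beside 5921 of 15614. Their median was 0.10, with 4 means above 0 and 1 below. EIF2B1, a regulatory subunit, was highest at 0.34, 0.03, 0.09 and 0.10, with a mean of 0.14 (SD 0.14, n 4, adjusted p = 0.209). Array 1 was highest, and without it the mean was 0.07. EIF2B2 was lowest at 0.10, −0.07, −0.10 and −0.03, with a mean of −0.03 (SD 0.09, n 4, adjusted p = 0.788), and its mean was 0.04 without lowess. Only array 1 was above 0, and the mean was −0.07 without it and −0.001 without array 3. EIF2B5, the catalytic subunit, had a mean of 0.10, EIF2B4 of 0.11 and EIF2B3 of 0.04.

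eIF3 is the largest initiation complex and bridges the ribosome and the mRNA. Of its genes 10 were tested under their symbols, and none passed in limma, beside 22.4% of all tested genes. An unadjusted p under 0.05 was seen in 2, beside 5921 of all 15614 tested genes. Their median was 0.03, but 0.27 without lowess and 0.21 centred on the tested probes. It was 0.0036 with normexp and loess, 0.0058 without array 3 and 0.057 without array 4. EIF3D, for a subunit that can bind the cap of some mRNAs, had the highest mean of all members, although without lowess EIF3L, EIF3I and EIF1 lay above it. Its probe is shown because of that value, from chromosome 28 (33793482 to 33793541, minus strand, build EquCab1, transcript ENSECAT00000024253), in lower case throughout as no base is set apart. The files do not say which part of the transcript a probe covers.
EIF3D: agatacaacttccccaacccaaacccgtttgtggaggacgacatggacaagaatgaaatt

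On arrays 1 to 4 EIF3D was at 0.54, 0.08, 0.53 and 0.13. Arrays 1 and 3 were high and arrays 2 and 4 near 0. The mean was 0.32 (SD 0.25, n 4, SE from limma 0.10, which draws on the spread of all tested probes), or 1.25-fold, with an adjusted p of 0.0675 that missed the threshold. Without lowess it passed, at 0.43 (adjusted p = 0.0206) and at 0.38 centred on the tested probes (adjusted p = 0.0341).

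EIF3A, for the scaffold subunit, was lowest of the complex at −0.13, −0.09, −0.14 and −0.25, with a mean of −0.15 (SD 0.07, n 4, adjusted p = 0.117). It was below 0 on all 4 arrays, yet its mean was 0.14 without lowess and 0.08 centred on the tested probes, whereas normexp and loess gave −0.20 with an adjusted p of 0.0401. EIF3I is a gene of this complex that the study lists among its changed genes. That call was made in other software, and a supplementary workbook of the study names a Student test. Which probe it rests on was not compared. The ratios of EIF3I were 0.02, 0.09, 0.11 and 0.12, with a mean of 0.09 (SD 0.04, n 4). The adjusted p was 0.322 in limma and 0.129 in the plain t-test. These ratios were from 1 probe. They were above 0 on every array, and without lowess the gene passed, at 0.47 (adjusted p = 0.0116) and 0.42 (adjusted p = 0.0170) by centring. Those values are of the brightest of its 5 probes, and the other probes had higher means, up to 0.19 (adjusted p = 0.0588 in limma). That highest probe was at 0.16, 0.19, 0.22 and 0.19 on the 4 arrays. The plain t-test of those other probes is not reported here. The mean of its probes was 0.13 (adjusted p = 0.166). The other members, EIF3C, EIF3E, EIF3G, EIF3H, EIF3K, EIF3L and EIF3M, had means from −0.05 (EIF3H) to 0.11 (EIF3L). Without lowess EIF3L passed with the highest mean of all members, at 0.52 (adjusted p = 0.00737) and 0.47 (adjusted p = 0.0102) by centring. EIF3K, at −0.02 with lowess, passed likewise, at 0.32 (adjusted p = 0.0265) and 0.27 (adjusted p = 0.0477). The files describe the probe of EIF3C as an uncharacterised protein.

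Of 11 genes of eIF4F and its partners tested, 2 passed (18.2%, beside 22.4% of all tested genes), both lower under each scaling, and the median of the 11 was −0.03, or 0.02 without lowess and −0.04 centred on the tested probes. It differed between arrays, at 0.11 on array 1 and −0.08, −0.06 and −0.06 on arrays 2 to 4. EIF4A2 and EIF4A1 encode related forms of the helicase that unwinds the mRNA leader. EIF4A2 has 2 probes, both from transcript ENSECAT00000023158 on the plus strand of chromosome 19 (build EquCab1), and they are shown since they carry the largest fall. The brighter lies at 20879342 to 20879401 and the other at 20879302 to 20879361, and capitals mark the 20 bases that they share.
EIF4A2: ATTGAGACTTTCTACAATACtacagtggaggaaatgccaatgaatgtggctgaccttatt
EIF4A2: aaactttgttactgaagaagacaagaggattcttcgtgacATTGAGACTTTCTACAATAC

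The brighter probe of EIF4A2 gave −0.41, −0.46, −0.48 and −0.80 on the 4 arrays. Every array was below 0, and array 4 was lowest. The mean was −0.54 (SD 0.18, n 4, SE from limma 0.08), 1.45-fold lower with HMB (adjusted p = 0.00889). The other probe had a mean of −0.49 (adjusted p = 0.0114), but with 20 bases in common and the same RNA it is no replicate. The gene passed without any of the 4 arrays, with adjusted p from 0.0118 to 0.0352, and missed the threshold in the plain t-test (adjusted p = 0.0840). EIF4A1, its close relative, had a mean of −0.01, and without lowess it was at 0.28 (adjusted p = 0.0489) and 0.22 (adjusted p = 0.0835) by centring.

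EIF4G3 encodes a form of the scaffold that joins the cap-binding protein and the helicase. Its probe is shown as that of the other gene of the complex that fell, from chromosome 2 (31911223 to 31911282, plus strand, build EquCab1, transcript NM_001081762).
EIF4G3: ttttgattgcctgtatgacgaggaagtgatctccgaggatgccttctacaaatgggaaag

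On arrays 1 to 4 EIF4G3 was at −0.18, −0.18, −0.42 and −0.42. All 4 were below 0, with arrays 3 and 4 lower than arrays 1 and 2. The mean was −0.30 (SD 0.14, n 4, SE from limma 0.07), 1.23-fold lower (adjusted p = 0.0333). Leaving out array 2 (adjusted p = 0.0842), array 3 (0.139) or array 4 (0.0723) ended the call. So did separate channels without pairing (adjusted p = 0.0959), no filter on dim probes (0.0794) and the plain t-test (0.116).

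EIF4B, a cofactor of the helicase, was highest of the complex at 0.19, 0.26, 0.25 and −0.06, with a mean of 0.16 (SD 0.15, n 4, adjusted p = 0.172). Array 4 was below 0 and the others above it. Without lowess it passed, at 0.38 (adjusted p = 0.0129) and 0.32 (adjusted p = 0.0233) by centring. EIF4G2, for a scaffold that does not bind eIF4E, was singled out after its values were seen. It spread most of all members, at 0.21, −0.11, −0.34 and −0.82, with a mean of −0.27 (SD 0.43, n 4, adjusted p = 0.264). Array 1 was above 0 and array 4 far below, and the mean was −0.08 without array 4, −0.02 without lowess and −0.07 centred on the tested probes. EIF4ENIF1, which carries eIF4E to the nucleus, had a mean of −0.24 (adjusted p = 0.129). It passed as lower without lowess, at −0.38 (adjusted p = 0.0475) and −0.43 (adjusted p = 0.0376) by centring, and without array 1, at −0.35 (adjusted p = 0.0414). With normexp and loess it was at −0.10 (adjusted p = 0.247). EIF4E3 had a mean of −0.10, and −0.02 without array 1. Without lowess it missed the threshold, at −0.23 (adjusted p = 0.0599), and passed only centred on the tested probes, at −0.29 (adjusted p = 0.0325). Of the rest, means were −0.03 for EIF4E, the cap-binding protein, 0.03 for EIF4E2, 0.10 for EIF4H and 0.12 for EIF4G1.

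eIF1 and eIF5 act in the choice of the start codon, and EIF1B and EIF1AD were grouped with them by name alone. The 4 tested genes had a median of 0.03. It was 0.18 without lowess, 0.13 centred on the tested probes and 0.07 with the mean of a gene's probes. None passed in limma, beside 22.4% of all tested genes, and 2 had an unadjusted p under 0.05, beside 5921 of 15614. EIF1AD, named for a domain shared with eIF1A, was highest at 0.05, 0.17, 0.34 and 0.21, with a mean of 0.19 (SD 0.12, n 4, adjusted p = 0.0937). All arrays were above 0, array 3 most. EIF1 itself, which guards against wrong start codons, was lowest at −0.09, −0.25, −0.17 and −0.16, with a mean of −0.17 (SD 0.07, n 4, adjusted p = 0.0953). It was below 0 on every array, but without lowess its mean was 0.45 (adjusted p = 0.0113), and 0.40 centred on the tested probes (adjusted p = 0.0163), both past the threshold and higher. With normexp and loess it was at −0.03 (adjusted p = 0.663). EIF5, which triggers GTP hydrolysis on eIF2, had a mean of −0.04 and EIF1B of 0.10.

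The last group acts when the subunits join and afterwards. eIF5B joins the subunits, and eIF5A, the protein that carries hypusine, helps peptide bonds to form. Of 3 genes tested, 1 passed, beside 22.4% of all tested genes, and their median was 0.14. EIF5A2, the paralogue of EIF5A, is shown by its brightest probe as the member that rose. The probe has 60 bases, and its coordinates on chromosome 19 (7254415 to 7255058, minus strand, build EquCab1, transcript ENSECAT00000024290) span 644.
EIF5A2: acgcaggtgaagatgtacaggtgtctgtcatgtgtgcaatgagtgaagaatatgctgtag

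On arrays 1 to 4 EIF5A2 was at 0.08, 0.33, 0.35 and 0.35. All were above 0, and array 1 was far below the other arrays. The mean was 0.28 (SD 0.13, n 4, SE from limma 0.07), or 1.21-fold higher (adjusted p = 0.0382). The call was lost without array 2 (adjusted p = 0.157), array 3 (0.150) or array 4 (0.0815), with the mean of the 3 probes (0.22, adjusted p = 0.10) and with arrays centred on the tested probes (0.23, adjusted p = 0.0597). It was lost as well in separate channels without pairing (adjusted p = 0.147), without the filter on dim probes (0.0815) and in the plain t-test (0.118). EIF5B was lowest at −0.28, 0.16, −0.22 and −0.38, with a mean of −0.18 (SD 0.24, n 4, adjusted p = 0.234). Array 2 was above 0 and the others below, and the mean was −0.29 without array 2 and −0.11 without array 4. EIF5A had a mean of 0.14 and did not pass (adjusted p = 0.180).

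**Figure D3:**
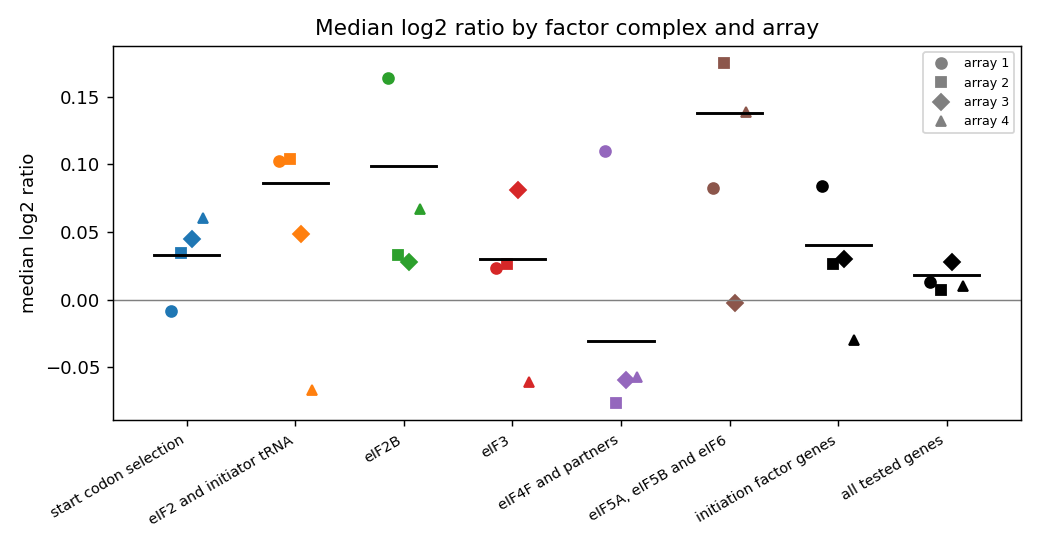
Median log2 ratio of HMB-treated over control cells (vertical) of the tested genes of each complex on each array (symbols, set side by side) and of the means over arrays (bars), with all initiation factor genes and all 15614 tested genes on the right. The bars run from −0.03 for eIF4F and its partners (0.02 without lowess, −0.04 centred on the tested probes) to 0.14 for eIF5A and eIF5B, and without lowess the median of eIF3 was 0.27 in place of 0.03.

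For 16 members more than 1 probe was tested. In 9 of them all probes had means of the same sign, in 7 they had both signs, and the widest range within a gene was 0.19 (EIF4G1). Without lowess the probes had the same sign in 15 of the 16 under either centring. Of the 62 tested probes 4 passed in limma, both of EIF4A2 and 1 each of EIF4G3 and EIF5A2, beside 22.8% of all 27383 tested probes. The 3 probes of EIF5A2 had means of 0.28, 0.24 and 0.14, and only the brightest passed. The dimmer probe of EIF4A1 (0.15) is described in the files as SENP3.

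**Figure D4:**
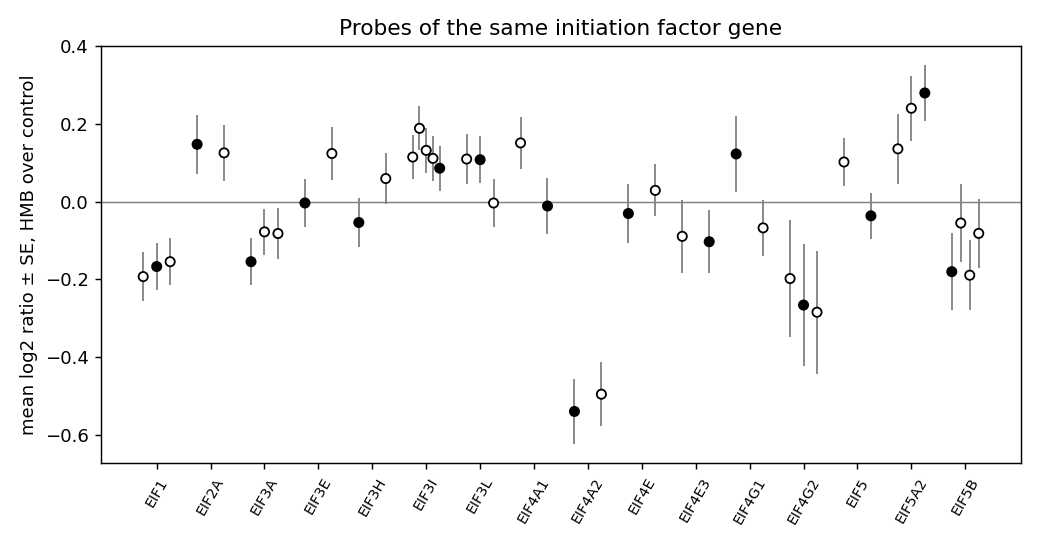
Mean log2 ratio of HMB-treated over control cells with its SE from limma (vertical), n 4, of each tested probe of the 16 initiation factor genes with several, with the brightest probe filled. Both probes of EIF4A2 lie near −0.5, and those of EIF4G1 fall on either side of 0. Without lowess, where most members lie above 0, 15 of the 16 genes have probes of 1 sign.

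Other genes of translation were taken from lists of regulators, accessory factors, elongation and termination. Of 47 named, 39 were on the array and 38 were tested, and 7 (18.4%) passed, 6 lower and 1 higher, beside 22.4% of all tested genes. The split moved with the scaling. Without lowess 9 passed, 5 higher and 4 lower, centred on the tested probes 9, with 4 higher and 5 lower, and with normexp and loess 8, with 1 higher and 7 lower. The share of all tested genes was 27.2%, 24.9% and 21.4% in these fits. Their median was 0.01. The count was 4 without array 1, 2 without array 2 and 0 without array 3, beside 17.1%, 8.97% and 9.76% of all tested genes. In the fit without array 3, the unadjusted p in limma was under 0.05 for 7 of these genes. The plain t-test called 0, beside 2.63% of all tested genes, with 6 at an unadjusted p under 0.05. Under the names used, EIF4EBP3, MKNK1, MKNK2, PPP1R15B, PABPC3, EEF1B2, GFM1 and HBS1L had no probe, and PAIP2B was not well above background.

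Among 11 regulators of initiation 2 passed (18.2%, beside 22.4% of all tested genes). EIF2AK2, the kinase PKR that phosphorylates eIF2 on double-stranded RNA, was at −1.28, −0.38, −2.005 and −0.39, with a mean of −1.01 (SD 0.79, n 4, adjusted p = 0.0441). Arrays 1 and 3 were far below arrays 2 and 4, and the call was lost without array 1 (adjusted p = 0.127) or array 3 (0.0840). PAIP2, which takes the poly(A)-binding protein off the mRNA, fell to a mean of −0.39 (SD 0.25, n 4, adjusted p = 0.0398), but not past the threshold without array 1 (0.0846), array 2 (0.0702) or array 3 (0.0935). The highest was PDCD4, an inhibitor of eIF4A, at 0.24 (adjusted p = 0.123). The eIF4E-binding proteins had means of 0.09 (EIF4EBP1) and 0.04 (EIF4EBP2), which were −0.04 and −0.01 without array 1. EIF4EBP1 was at 0.22 without array 4, and EIF4EBP2 at −0.04 without lowess centred on the tested probes. Without lowess EIF4EBP1 passed as higher, at 0.37 (adjusted p = 0.0229) and 0.31 (adjusted p = 0.0469) by centring. Of 10 accessory factors 1 passed (10%, beside the same 22.4%), the poly(A)-binding protein PABPC4, at −0.27 (SD 0.07, n 4, adjusted p = 0.0273). It was lower on all 4 arrays, and missed the threshold without lowess (adjusted p = 0.0742), though not centred on the tested probes (−0.24, adjusted p = 0.0355), and without array 2 (0.125), array 3 (0.118) or array 4 (0.0545). The highest, the mitochondrial factor MTIF3, was at 0.21 (adjusted p = 0.134).

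Of 11 elongation factors 4 passed (36.4%, beside 22.4% of all tested genes), and the count was 1 without array 2 and 0 without array 3 (4 at an unadjusted p under 0.05 in limma), against 3 without array 1 or array 4. With arrays 1 to 4 left out in turn, the share of all tested genes was 17.1%, 8.97%, 9.76% and 17.6%. EEF1A2, the form of elongation factor 1A found in mature muscle and nerve, was at −0.37, −0.88, −1.36 and −1.58, with a mean of −1.05 (SD 0.54, n 4, adjusted p = 0.0150). It was lower on all 4 arrays, at −0.68 with normexp and loess, and missed the threshold without array 3 (0.0554). EEF1A1, the widespread form, was the higher one at 0.42, 0.37, 0.40 and 0.02, with a mean of 0.30 (SD 0.19, n 4, adjusted p = 0.0491). Array 4 was near 0, and the call was lost without array 1 (0.120), array 2 (0.175) or array 3 (0.174). It was lost as well with the trend and robust prior. There 6 of the other translation genes passed, all lower, beside 21.0% of all tested genes. The mean of EEF1A1 was larger under each other scaling, at 0.63 with normexp and loess (adjusted p = 0.00745) and at 1.301 (adjusted p = 0.000618) and 1.25 (adjusted p = 0.000791) without lowess by centring. Centred on the array median, EEF1D (0.60), EEF1G (0.43) and TSFM (0.33) were also past the threshold and higher, and centred on the tested probes TSFM was not. EEF2, the translocase, was at −0.38 (adjusted p = 0.0439), but at 0.06 and 0.01 without lowess by centring, and past the threshold in neither. Its call was also lost without array 2 (0.119), array 3 (0.141) or array 4 (0.0832). Its kinase EEF2K was at −0.35 (adjusted p = 0.0212), and missed the threshold without array 2 (0.0897) or array 3 (0.0926). None of the 6 termination genes passed in limma, beside 22.4% of all tested genes, or had an unadjusted p under 0.05, beside 5921 of 15614. Under either scaling without lowess none passed, beside 27.2% and 24.9%. Their means with lowess ran from −0.15 (GSPT2) to 0.08 (MTRF1).

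Some initiation factors are on the array under a transcript identifier only. From the descriptions in the files or the RefSeq gene table, a step chosen after seeing the data, 8 more genes were found, namely EIF1AX, EIF2D, EIF3B, EIF3F, EIF3J, EIF4A3, EIF6 and a gene like EIF4E. None passed in limma, so that 3 of 44 did in all, beside 22.4% of all tested genes. Of the 44, 14 had an unadjusted p under 0.05, beside 5921 of 15614, and the median of the 44 was 0.09. The gene like EIF4E spread most, at 0.03, 0.52, 0.69 and 1.51, with a mean of 0.69 (SD 0.61, n 4, adjusted p = 0.0671). It was above 0 on all 4 arrays, array 4 most. Its control channel (Cy3) was well above background on only 3 arrays, and its Cy5 channel on 4. The other 7 had means from −0.04 (EIF3J) to 0.20 (EIF1AX).

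**Figure D5:**
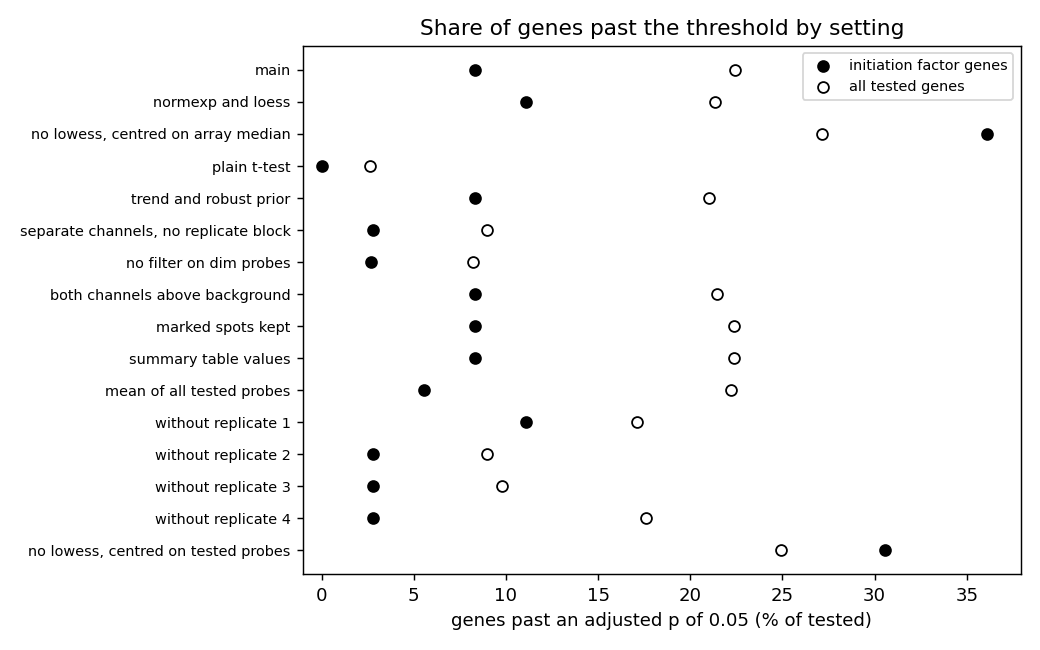
Share of genes past an adjusted p of 0.05, in % of those tested (horizontal), among initiation factor genes (filled) and all tested genes (open) under each way of processing (vertical). The members' share lay below that of all genes with lowess, at 8.33% beside 22.4% in the ratios used here, and above it without lowess.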

How the data were processed

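The authors made the raw intensity values of each spot, and the deposited log10 ratios (Cy5 to Cy3) with linear and lowess normalisation, in Feature Extraction, version 10.10.1.1 per the file headers and 10.7.3.1 in the methods. To reach the log2 scale, ratios were multiplied by 3.32. Control spots and spots marked non-uniform or outlying were left out, and the spots of a probe averaged. Tested were the 27383 of 43603 probes with a value on 3 or more arrays and with 1 channel, the same throughout, well above background on each of the 4. The test was limma 3.58.1 in R 4.3.3 (intercept only, two-sided), adjusted by Benjamini and Hochberg over all tested probes, with a threshold of 0.05. Its adjusted p are those printed. For a gene with several tested probes, the brightest on average stands for it.

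Genes named with values on each array are members that passed with 1 sign on every array, the highest and lowest of each complex, and EIF3I. From other lists those past the threshold, the highest and the lowest, and the markers are named, most by their mean alone. The members and lists were chosen with earlier results of these data known. EIF4G2 and the gene like EIF4E were chosen after their values were seen.

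Both channels of an array deviated together from their group means (r from 0.451 to 0.638, against at most 0.205 with another array), so the ratio within an array pairs them. Alternatives were normexp (offset 50) with loess, no lowess, a plain one-sample t-test, a trend and robust prior, separate channels, no filter, a filter on both channels, no spots left out for marks, values of the deposited summary file, at least 1.3-fold, the mean of a gene's probes, members by RefSeq accession, and each array left out (at least 2 values). The methods section names no test for the differences between HMB-treated and control cells, and a supplementary workbook of the study names a Student test. Centring on tested probes and naming by description were added after seeing the data. Other tools were data.table (version 1.17.8), pandas 2.3.3, numpy 2.4.6 and matplotlib 3.10.9, the last 3 in Python 3.11.15. Simulated data were used to test the procedure. Sequences and coordinates are those of the files.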

Additional observations from a re-analysis of the deposited data

Results flagged for a closer look

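In 6 of 106 groups of 4 arrays, 1 array lay far from the other arrays, by the gap to its nearest neighbour over the whole range. Chance flags about 1 in 20 such groups. On array 1 EIF2B3 was at −0.033, below the other arrays, EIF5A2 was at 0.083, below them, and the median of eIF4F and its partners was 0.11, above them. On array 4 EIF3K was at −0.19 and EEF1A1 at 0.023, below the other arrays, and DDX3X was at 0.41, above them.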

How the results depend on the processing

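EIF4A2 was lower under every alternative run and past the threshold in all but the plain t-test. Of the initiation factor genes, each by its brightest probe, 3 passed, and 4 with normexp and loess. Without lowess 13 did, or 11 centred on the tested probes (chosen after seeing the data). With the plain t-test 0 passed (9 at an unadjusted p under 0.05). Without the filter on dim probes, or with at least 1.3-fold, 1 passed. In separate channels, with no pairing by array as a block, 1 passed, and 2 of the other translation genes. Of those, 7 passed, and 0 with the t-test (6 at an unadjusted p under 0.05), 1 without the filter and 3 with at least 1.3-fold. With each array left out in turn, the members past the threshold numbered 1 to 4 and the other translation genes 0 to 5. The share of all tested genes was 22.4%, and 27.2% without lowess or 24.9% centred on the tested probes. It was 2.63% with the t-test, 8.24% without the filter, 8.97% in separate channels and 13.7% with at least 1.3-fold. With an array left out it ran from 8.97% to 17.6%.

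Without lowess the median of the members was 0.19 (0.13 centred on the tested probes), of start codon selection 0.18 (0.13), of eIF2 0.26 (0.20) and of eIF3 0.27 (0.21), and 15 of 16 genes (15) had probes of the same sign. With the mean of a gene's probes the median of start codon selection was 0.068. With normexp and loess the medians were 0.018 for start codon selection, 0.040 for eIF2, 0.0036 for eIF3 and −0.065 for eIF4F and its partners. With 1 array left out the median ran from 0.064 to 0.12 for eIF2B and from −0.052 to −0.021 for eIF4F and its partners. EIF1 turned to 0.45 (0.40), EIF3A to 0.14 (0.085) and EIF2B2 to 0.041 without lowess. With normexp and loess EIF1 was at −0.033. The cause was not tested. With 4 arrays on 1 slide and no dye swap, dye bias and treatment cannot be told apart for a probe.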
